A study of Mus musculus with 15 samples.

Results

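Ruxolitinib was added to AG221 to ask what JAK inhibition contributes when mutant IDH2 is already inhibited. The comparison sets the 3 libraries labelled as combined treatment against the 3 labelled as AG221, 6 of the 15 libraries of the series, chosen by their labels. It covers the 17834 of 45232 gene IDs that passed a filter on low counts. The cells are CD45.2+ LSK cells, lineage-negative Sca-1+ c-Kit+ bone marrow cells enriched for stem and progenitor cells, from a mouse model of myeloproliferative neoplasm. RNA was sequenced in 5 groups of 3 libraries each, namely WT, vehicle, AG221, ruxolitinib and combined treatment. The donor marrow carried Jak2 V617F and Idh2 R140Q, switched on by Mx1-Cre, a driver that is active in blood cells and also in other tissues. All mice were C57BL/6. Mutant CD45.2 cells had been mixed with an equal number of wild-type CD45.1 cells and given to lethally irradiated CD45.1 hosts, so competitor and host cells remained in the marrow, and the sort on CD45.2 was the step that set the mutant cells apart. AG221 was given by gavage at 40 mg/kg 2 times a day, and the combined group received ruxolitinib at 60 mg/kg as well. Treatment lasted 21 to 28 days, with the last dose about 1.5 h before the mice were killed. The ruxolitinib group received 60 mg/kg without AG221 and the vehicle group neither drug, both on the same schedule. No dosing is listed for the WT group. The sample labels do not say whether a library holds 1 mouse or several pooled.

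JAK kinases are bound to the inner tails of cytokine receptors, and when a cytokine arrives they phosphorylate STAT factors, which enter the nucleus and switch on target genes, including genes of SOCS proteins that dampen the same signal. JAK2 serves the receptors of thrombopoietin, erythropoietin and the GM-CSF family, JAK1 serves interferon and interleukin-6 type receptors, and the V617F change lets JAK2 signal without cytokine. Mutant IDH2 turns 2-oxoglutarate into 2-hydroxyglutarate, which inhibits dioxygenases that remove methyl marks from DNA and histones, and AG221 blocks that reaction.

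Library values are given in the order A8, A9 and A10 for AG221 and B24, B25 and B26 for combined treatment, as CPM, counts relative to library size with TMM factors, unless another unit is named. The AG221 libraries held 25545779, 22116122 and 28369651 counts, and the combined libraries held 18836625, 29580486 and 21555836. At these depths 3 counts, taken as the floor, correspond to between 0.101 and 0.159 CPM, which covers counting error only, since the amplified libraries carry no molecular identifiers. Replicate A9 stood apart from the other AG221 libraries. Its log2 CPM correlated across genes at 0.960 with A8 and 0.966 with A10, while A8 and A10 correlated at 0.983 and A9 correlated at 0.969 with the combined library B26. On the first principal component of the 6 libraries, which held 63.9% of the variance, A8 and A10 lay at -107.3 and -90.55, A9 at -11.91, and the combined libraries at 88.42, 74.17 and 47.16. The groups were separate on this axis, with A9 the AG221 library nearest to the combined ones. The replicate names also begin with a letter whose meaning the labels do not give, B for combined and WT libraries and A for all others. Combined treatment against AG221 is therefore also B against A, and in this comparison the added drug and whatever the letter stands for cannot be told apart. The series holds the addition of ruxolitinib a second time, in mice without AG221, as ruxolitinib against vehicle, where all 6 libraries are named A and none is shared with the first comparison.

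Several library-wide measures differed with the groups. Mitochondrial genes took 1.46%, 1.23% and 1.46% of the counts with AG221 and 0.981%, 0.916% and 1.12% with combined treatment. Ribosomal protein genes took 3.21%, 2.89% and 3.45% against 2.29%, 2.32% and 2.36%. The 100 most abundant genes took 18.3%, 16% and 17.7% against 12.8%, 12.8% and 13.6%. Vehicle and ruxolitinib libraries also lay below every AG221 library, at 0.846% to 1.06% for mitochondrial genes and 2.19% to 2.44% for ribosomal protein genes. For the 100 most abundant genes they lay between AG221 and combined libraries, at 14.7% to 15.4%. In all 3 measures each combined library was below each AG221 library, and the mean transcript length over the counts was longer in each combined library (3754, 3679 and 3717 bases) than in each AG221 library (3548, 3559 and 3492 bases). An exact two-sided permutation test of 3 against 3 libraries cannot give a p below 0.1, which is what each of these measures gave. Depth (p = 0.7, exact test), the number of genes with a count (p = 0.6, exact test) and mean GC content (p = 0.3, exact test) overlapped between the groups. The part of these measures in the gene results was not tested. The cells carried the markers of the LSK gate in both groups. All 10 LSK markers were detected and none stood at or under 3 counts in every library. Their levels were not all alike. For 2 of the 10 every combined library was below every AG221 library, and for 1 every combined library was above. Kit, the stem cell factor receptor that defines the gate, stood at 984, 740 and 992 CPM with AG221 and at 1025, 901 and 940 CPM with combined treatment, and these ranges overlapped. Summed over the list, LSK markers stood at 2470, 2290 and 2605 CPM with AG221 and at 3272, 2468 and 3048 CPM with combined treatment, also overlapping, and the most abundant per length was Cd34.

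Adding ruxolitinib to AG221 went with a change in 33.2% of the tested genes. By edgeR's quasi-likelihood F test at an adjusted p under 0.05, which is what called, rose and fell mean throughout, 5917 genes differed, 3371 higher (18.9%) and 2546 lower (14.3%) with combined treatment. The genes that rose moved further than those that fell, with a median log2 fold change of 1.59 against -0.71, and 2668 rose but 667 fell by at least 2-fold. The 3 combined and 3 AG221 libraries did not overlap for 7956 genes (44.6% of those tested), among them 3242 of the genes called higher and 2453 of those called lower. Of the classes of transcript, protein-coding genes rose in 3084 and fell in 2180 of 14083 cases, whereas small nucleolar RNAs rose in 4 and fell in 26 of 108. Genes called higher had longer transcripts (median 3564 bases) and a higher GC content (50.8%) than genes called lower (2522 bases and 48.0%), beside 2984 bases and 49% over all tested genes. The split between higher and lower calls depended on the scaling of the libraries. The higher share was 57.0% of calls with TMM factors, 38.0% (2671 higher and 4359 lower) with upper quartile factors and 39.8% (2663 and 4028) with offsets for GC content, as the median over all genes went from a log2 fold change of 0.11 to -0.18 and -0.16. The count of calls was 3002 without A8, 3234 without A10 and 3283 without B24.

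**Figure D1:**
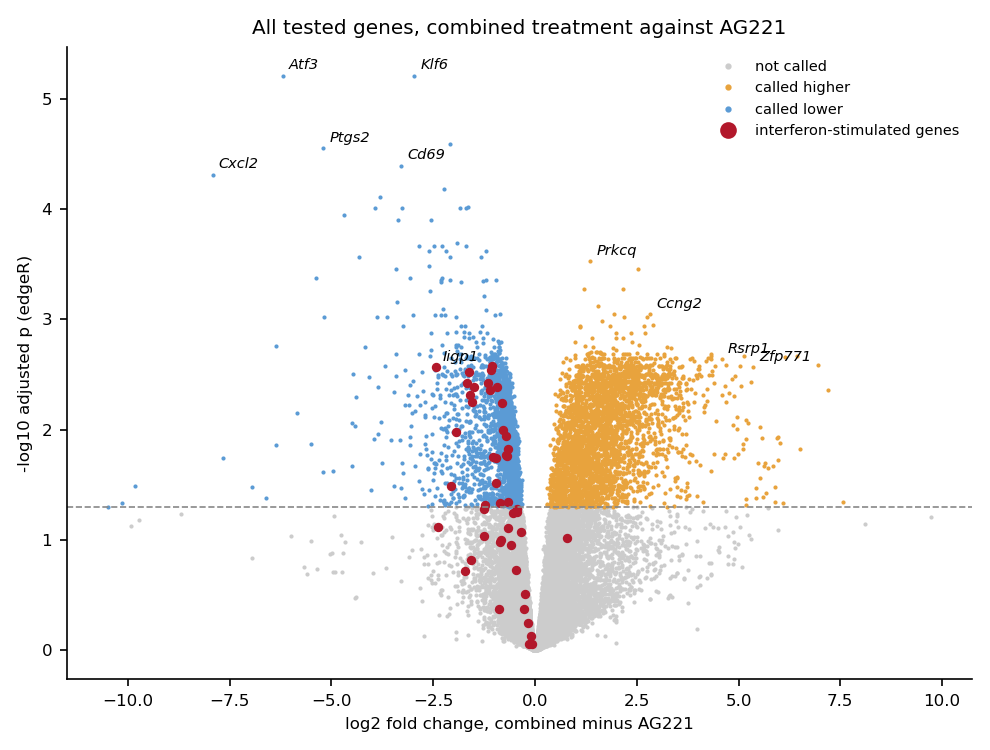
Log2 fold change of combined treatment minus AG221 (horizontal axis) against the negative log10 of edgeR's adjusted p (vertical axis) for the 17834 tested genes, with called genes coloured by direction and interferon-stimulated genes in red. The genes with the smallest adjusted p, Klf6 and Atf3, lie on the lower side, and the calls on the higher side reach larger fold changes in greater number.

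Ruxolitinib without AG221 called 3 genes, all lower (0.0168% of the genes tested, with 813 at an unadjusted p under 0.05 and 50 called by DESeq2, 6 higher and 44 lower). They were Irf7, Rtp4 and the T cell receptor gamma constant gene Tcrg-C1, and all 3 also fell when ruxolitinib was added to AG221. No gene was called for ruxolitinib against vehicle by edgeR once A14, A16 or A17 was left out (734, 720 and 1018 at an unadjusted p under 0.05), 4 were called without A3 and 9 without A4. Across all tested genes the log2 fold changes of both additions correlated weakly, with a Pearson r of 0.0989 and a Spearman rho of 0.0474 as a description over genes, which are not independent. Both additions had the same sign for 2898 of the 5917 called genes (49%), beside 8811 of all 17834 (49.4%). The change from adding ruxolitinib itself differed with and without AG221 for 1502 genes by edgeR's test of the difference (8.42%), 999 higher (5.6%) and 503 lower (2.82%) with AG221. With upper quartile factors the calls for the difference were 1162 higher and 1962 lower, with GC offsets 1006 and 834, and with at least 10 counts in every library 1231 and 1254. They numbered 6087 without A9 but 172 without A3, 103 without A4, 93 without A8, 96 without A10, 218 without A16, 88 without A17, 61 without B24 and 44 without B25, so most of these calls depend on which libraries are in the fit. Since the other addition lies within the letter A, this test too sets the letters against each other.

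How the genes order over more than the 6 libraries separates a pair of patterns. For 1317 of the 3371 genes called higher (39.1%) all 6 libraries named B, WT and combined alike, stood above all 9 named A, beside 8.0% of all tested genes. For 669 of the 2546 called lower (26.3%) all B libraries stood below all A libraries, beside 4.42%. In the other pattern all 6 libraries of mice given ruxolitinib, alone or combined, stood on the same side of all 6 libraries given vehicle or AG221. That held for 130 genes called lower (5.11%) and 32 called higher (0.949%), beside 0.824% and 0.213% of all tested genes. Both counts are over genes called in this comparison, so the order within the 6 libraries is given by the call in part.

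**Figure D2:**
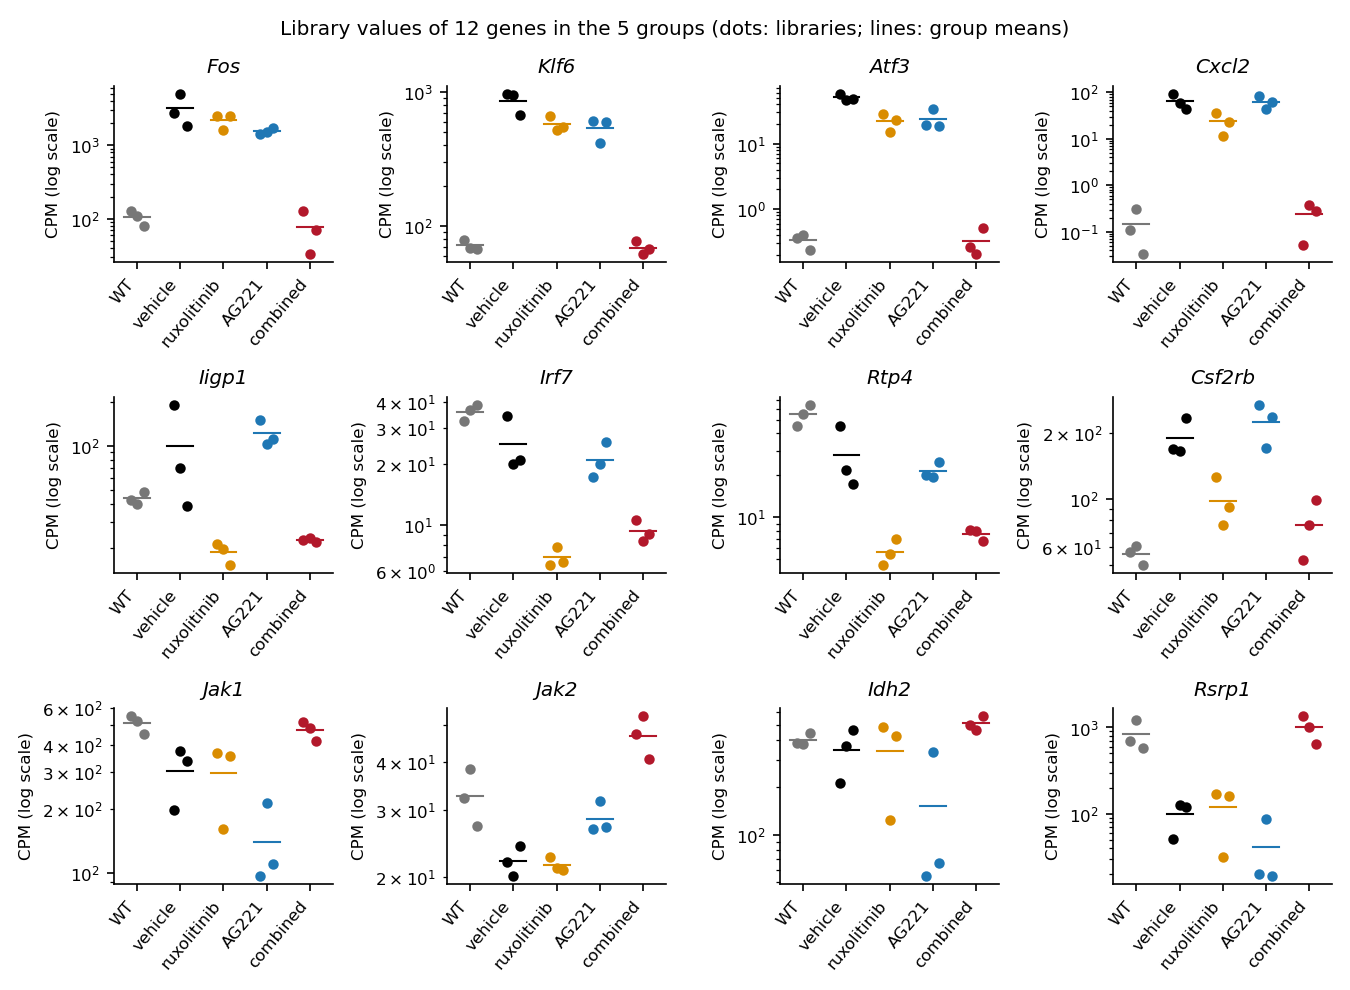
CPM of 12 genes on a log axis in each library of the 5 groups, with dots for libraries and lines for group means. Fos, Klf6, Atf3 and Cxcl2 are lowest in WT and combined libraries, while Iigp1, Irf7, Rtp4 and Csf2rb are lower in both groups given ruxolitinib than in vehicle and AG221, and Jak1 and Rsrp1 are high in WT and combined libraries.

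Interferon-stimulated genes, which cells switch on through JAK kinases when interferon binds its receptor, mostly had negative log2 fold changes when ruxolitinib was added to AG221. Of 47 tested members of a list of 48, 25 were called lower (53.2%, beside 14.3% of all tested genes) and 0 higher, where DESeq2 called 32 lower and also 0 higher. In 36 of the 47 all combined libraries stood below all AG221 libraries (beside 44.6% of all tested genes without overlap in either direction), and 46 had a negative log2 fold change. The median was -0.87, beside 0.11 over all tested genes. Summed over the list, they stood at 7137, 5587 and 6522 CPM with AG221 and at 3360, 3480 and 4112 CPM with combined treatment, with Ly6e the most abundant per length. Every combined library was below every AG221 library, at the level of the WT libraries (3631, 3586 and 4038 CPM). Iigp1, a GTPase of the interferon-gamma response that attacks the vacuoles of intracellular parasites, stood at 151, 103 and 110 CPM with AG221 and at 22.5, 23.3 and 21.8 CPM with combined treatment. The combined libraries lay close to each other and far below all AG221 libraries (log2 fold change -2.43, SE 0.42, edgeR adjusted p = 0.0027). Igtp, a second GTPase of that family, stood at 188, 121 and 126 against 46.1, 43.1 and 52.5 CPM (-1.61, SE 0.29, edgeR adjusted p = 0.0030), and Irgm1, another, at 206, 142 and 182 against 83.3, 81.9 and 85.3 CPM (-1.08, SE 0.19, edgeR adjusted p = 0.0029). Gbp7, a guanylate-binding protein gene of the same response, stood at 270, 188 and 218 against 99.2, 109 and 116 CPM (-1.06, SE 0.18, edgeR adjusted p = 0.0026). In all 3 the groups were separate. Ly6e, a surface protein gene induced by type I interferon, stood at 2524, 1713 and 2135 against 1097, 1113 and 1439 CPM, again without overlap (-0.80, SE 0.18, edgeR adjusted p = 0.0057). In bulk samples fewer cells of a type and less RNA per cell cannot be told apart. The count of lower calls in the list was 16 without B24 and 15 without B25, and 1 member was called higher without A9. Reads of the Gbp family may be shared among its members, and the strand setting of the counting is not stated, so genes that overlap another gene are less certain, here Gbp7 (11.4% of its exon length on the same strand), Rtp4 (13.9%) and Igtp (8.01%).

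Without AG221, edgeR called 2 genes of this list for ruxolitinib, out of 3 called among all tested genes (0.0168%). The list's median log2 fold change was -0.90 for ruxolitinib minus vehicle (-0.53 without A1), beside 0.01 over all tested genes, 45 of 47 members were negative and 2, Irf7 and Rtp4, were called lower by edgeR, against 12 by DESeq2. Summed over the list, the libraries stood at 7327, 5706 and 5264 CPM with vehicle and at 4048, 3525 and 3588 CPM with ruxolitinib, without overlap. The median of the difference between both additions was 0.03, and edgeR called 0 of the 47 members for it, as did DESeq2, although a test that calls none does not show equal changes, and without A9 it called 1 higher and 2 lower. Irf7, the factor that amplifies the type I interferon response, stood at 17.2, 19.9 and 25.5 CPM with AG221 and at 10.6, 8.33 and 9.02 CPM with combined treatment, and at 34.4, 19.9 and 20.9 CPM with vehicle and 6.41, 7.86 and 6.64 CPM with ruxolitinib. Both groups given the drug were below both groups without it. Its log2 fold change was -1.16 (SE 0.23, edgeR adjusted p = 0.0037) with AG221 present and -1.84 (SE 0.23, edgeR adjusted p = 0.026) without. Rtp4, an interferon-induced chaperone of receptors, fell by 1.51 (SE 0.31, edgeR adjusted p = 0.0041) and 2.31 (SE 0.32, edgeR adjusted p = 0.026) on the log2 scale, and its 3 combined libraries at 8.14, 7.91 and 6.71 CPM lay below 20.3, 19.6 and 24.9 CPM with AG221. The calls of Irf7 and Rtp4 against vehicle were lost without A14, A16 or A17 and with only the 6 libraries. Iigp1 had nearly equal log2 fold changes, -2.43 and -2.41, and the second was not called (edgeR adjusted p = 0.11). In 14 of the 47 members (29.8%, beside 0.824% of all tested genes) all 6 ruxolitinib and combined libraries stood below all 6 vehicle and AG221 libraries.

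**Figure D3:**
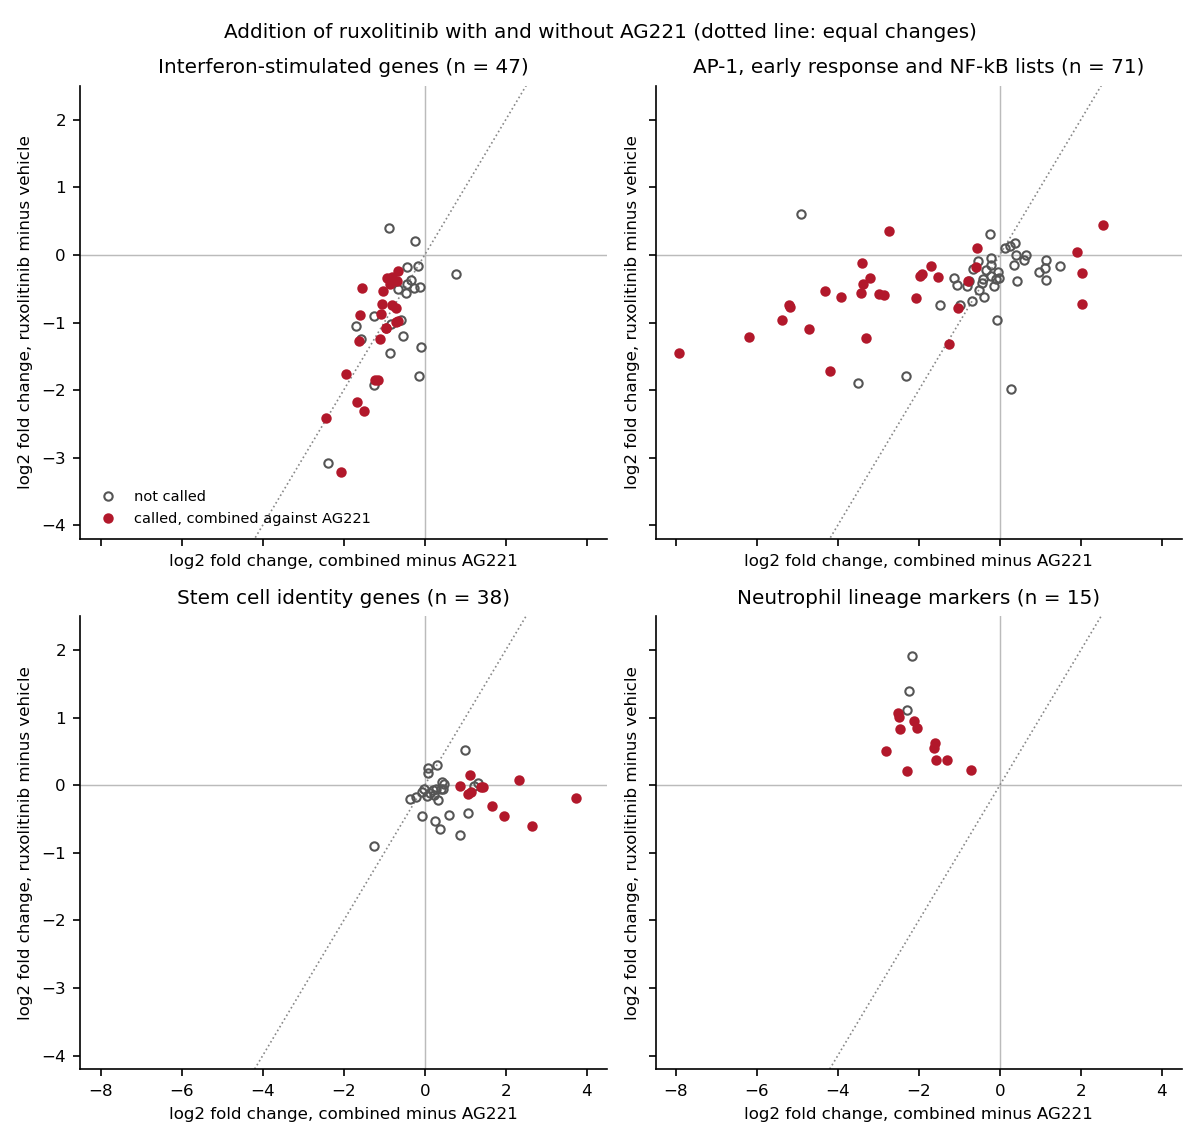
Log2 fold change of each list member for combined treatment minus AG221 (horizontal axis) and ruxolitinib minus vehicle (vertical axis), filled where called in the first comparison, with a dotted line of equal changes. Interferon-stimulated genes lie along the dotted line, some AP-1, early response and NF-kB genes lie far to the left of it, and neutrophil markers lie on opposite sides of zero in the 2 comparisons.

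Genes of the JAK and STAT proteins themselves moved both ways. Of 11 on the list, 5 rose (45.5%) and 2 fell (18.2%), beside 18.9% and 14.3% of all tested genes. Those that rose were Jak1, Jak2, Stat2, Stat5a and Stat5b. The list's median log2 fold change was 0.65, beside 0.11 over all tested genes. It was 0.38 with upper quartile factors, 0.39 with GC offsets or without A8, and 0.93 without A9. Jak2, the kinase mutated in this model and a target of the drug, stood at 26.7, 31.5 and 27.0 CPM with AG221 and at 47.3, 52.9 and 40.7 CPM with combined treatment. Every combined library was above every AG221 library (log2 fold change 0.73, SE 0.16, edgeR adjusted p = 0.0060). Jak1, the other main target, stood at 96.8, 213 and 110 CPM against 514, 482 and 418 CPM (1.75, SE 0.35, edgeR adjusted p = 0.0038). Stat5b, which carries JAK2 signals, stood at 80.6, 173 and 86.5 CPM against 305, 308 and 272 CPM (1.38, SE 0.27, edgeR adjusted p = 0.0038), and its relative Stat5a at 109, 225 and 152 CPM against 263, 272 and 227 CPM (0.65, SE 0.21, edgeR adjusted p = 0.030). The groups were apart in each, with A9 the highest AG221 library in all 4 of these genes. All B libraries stood above all A libraries for Jak1. The higher calls were 8 without A9 but 3 without A8, A10, B24 or B25 and with upper quartile factors, GC offsets or only the 6 libraries. Stat5a was not called with upper quartile factors, GC offsets, only the 6 libraries, or without A8, A10, B24 or B25. Its log2 fold change was 0.38 with upper quartile factors and 0.0071 with GC offsets, and leaving out 1 library gave 0.39 to 0.97. Jak2 was not called with upper quartile factors (log2 fold change 0.43, edgeR adjusted p = 0.055).

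Among 24 cytokine receptor genes, 4 rose (16.7%, beside 18.9% of all tested genes) and 6 fell (25%, beside 14.3%), with a median log2 fold change of 0.61 (0.37 without A8, 0.34 with upper quartile factors and 0.33 with GC offsets). With only the 6 libraries 2 rose and 3 fell. Csf2rb, the chain shared by the receptors of GM-CSF, interleukin-3 and interleukin-5, which signal through JAK2, stood at 268, 171 and 235 CPM with AG221 and at 52.6, 75.5 and 98.9 CPM with combined treatment. No combined library reached the AG221 range (log2 fold change -1.57, SE 0.25, edgeR adjusted p = 0.0023). Csf2rb2, a second copy of that chain that serves interleukin-3, stood at 42.0, 21.5 and 34.9 CPM against 2.82, 5.04 and 10.7 CPM (-2.40, SE 0.47, edgeR adjusted p = 0.0037), and reads of the 2 copies may be confused. In both genes all 6 libraries with ruxolitinib stood below all 6 with vehicle or AG221, and ruxolitinib minus vehicle gave -0.95 and -1.93, neither called (edgeR adjusted p = 0.57 and 0.41). Csf3r, the G-CSF receptor, stood at 438, 260 and 371 CPM against 210, 193 and 255 CPM (-0.70, SE 0.21, edgeR adjusted p = 0.021). The interferon receptor chains Ifngr2, Ifnar1 and Ifnar2 rose and Ifngr1 fell. Ifngr2, the signalling chain for interferon gamma, stood at 8.08, 18.8 and 6.84 CPM against 41.5, 37.0 and 47.3 CPM, with no overlap (1.90, SE 0.48, edgeR adjusted p = 0.010). Higher calls in the list were 0 without A8, 1 without A10, B24 or B26 and 9 without A9, and lower calls 3 without A8 or A10 and 2 without B24 or B25. Csf3r lost its call with only the 6 libraries and without A8, A10, B24 or B25, and Ifngr2 lost it without A8.

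Of 30 targets and feedback inhibitors of STAT signalling, 9 rose (30%, beside 18.9% of all tested genes) and 4 fell (13.3%, beside 14.3%) when ruxolitinib was added to AG221, and their median log2 fold change was -0.05, below the 0.11 of all tested genes. The calls were 7 higher and 8 lower with upper quartile factors and 7 and 9 with GC offsets (medians of -0.34 and -0.38). Ruxolitinib minus vehicle gave a median of -0.31 (-0.16 without A3). For combined treatment against AG221 the list's median was 0.41 without A9 and -0.20 without A10, and 5 members were called higher without A8 or A10. Osm, the gene of oncostatin M and a STAT5 target, stood at 55.6, 118 and 85.8 CPM with AG221 and at 12.7, 16.7 and 13.2 CPM with combined treatment. Every combined library was far below the AG221 range (log2 fold change -2.60, SE 0.28, edgeR adjusted p = 0.00024), and all B libraries of the series stood below all A libraries. Cdkn1a, which encodes the cell cycle inhibitor p21, fell from 60.5, 67.5 and 66.7 CPM to 25.5, 14 and 26.2 CPM (-1.57, SE 0.28, edgeR adjusted p = 0.0028), with 7.68% of its exons overlapped antisense. Socs6, a member of the SOCS family, stood at 23.7, 43.2 and 26.2 CPM with AG221 and 67.0, 63.2 and 67.8 CPM with combined treatment (1.09, SE 0.20, edgeR adjusted p = 0.0029). Sh2b3, the adaptor LNK that restrains JAK2, stood at 8.04, 15.2 and 9.38 CPM against 46.0, 32 and 23.0 CPM (1.63, SE 0.33, edgeR adjusted p = 0.0041). Both were without overlap. Myc, the growth factor-responsive transcription factor, stood at 312, 896 and 414 CPM against 892, 1050 and 1007 CPM (0.86, SE 0.30, edgeR adjusted p = 0.040), and here A9 overlapped the combined range. Its log2 fold change was 0.55 without A8 and 1.44 without A9, and its call was lost with upper quartile factors, GC offsets, only the 6 libraries and without A8, A10, B24, B25 or B26.

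Early response genes, which signalling switches on within minutes without new protein synthesis, held some of the genes that fell furthest, while most AP-1 and ATF factors were not called. Of 15 AP-1 and ATF factors, 4 fell (26.7%, beside 14.3% of all tested genes, Fos, Fosb, Atf3 and Batf) and 0 rose (DESeq2 called 1 higher and 4 lower, and GC offsets gave 0 and 6), with a list median of -0.22 that was -0.92 with GC offsets, -0.43 with upper quartile factors and -0.10 with at least 10 counts in every library. Fos, a subunit of AP-1, stood at 1426, 1505 and 1731 CPM with AG221 and at 129, 33.4 and 70.7 CPM with combined treatment. Fosb stood at 66.6, 89.7 and 62.7 CPM against 3.55, 1.80 and 3.15 CPM, and Atf3, a stress-induced factor of the ATF family, at 19, 33.7 and 18.4 CPM against 0.261, 0.207 and 0.509 CPM. The groups were far apart in all 3, with log2 fold changes of -4.32 (SE 0.48, edgeR adjusted p = 0.00027), -4.70 (SE 0.46, edgeR adjusted p = 0.00011) and -6.19 (SE 0.41, edgeR adjusted p = 6.2e-06). Ruxolitinib minus vehicle gave -0.53, -1.09 and -1.21 for Fos, Fosb and Atf3, none called by edgeR, and DESeq2 called 1 member of the list lower. By edgeR's test of the difference the fall was larger with AG221 for all 3 (-3.79, adjusted p = 0.011, -3.61, adjusted p = 0.010, and -4.97, adjusted p = 0.0014), and these calls held when any 1 of the 12 libraries was left out. All B libraries stood below all A libraries for the same 3, so the letter cannot be told apart from the drug. Batf, a partner of Jun proteins, stood at 43.9, 33.5 and 44.8 CPM against 24.1, 29.1 and 28.7 CPM (-0.58, SE 0.18, edgeR adjusted p = 0.027), a call lost with no low-count filter, only the 6 libraries, or without A8, A10, B24, B25 or B26. The list median was 0.63 without A9, where 3 members were called higher, 0.02 without B26, -0.05 without B25 and -0.41 without A8 or A10.

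Promoters of genes from these paragraphs are shown because the named factors act through short DNA motifs, and they run from 250 bases before to 50 after the annotated start in GRCm38.p6, from RefSeq. Motifs were searched on both strands as TTCNNNGAA (STAT), TGANTCA (AP-1), TGACGTCA (CRE) and GGGNNTTCC (NF-kB). Matches are in capitals, and a match describes letters, not binding. Atf3 (chr1:191183284-191183583, minus strand) and Fos (chr12:85473640-85473939, plus strand) hold none of these letter strings in this window. Hspa5 (chr2:34771840-34772139, plus strand), the endoplasmic reticulum chaperone BiP and 1 of the 8 protein-coding genes named for the smallest adjusted p on the lower side, holds an AP-1 string.
Atf3: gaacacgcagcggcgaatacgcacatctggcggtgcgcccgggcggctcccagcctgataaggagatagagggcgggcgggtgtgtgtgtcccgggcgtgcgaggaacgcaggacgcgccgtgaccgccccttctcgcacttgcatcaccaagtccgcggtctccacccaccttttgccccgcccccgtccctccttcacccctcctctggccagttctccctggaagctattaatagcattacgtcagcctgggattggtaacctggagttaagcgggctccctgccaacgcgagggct
Fos: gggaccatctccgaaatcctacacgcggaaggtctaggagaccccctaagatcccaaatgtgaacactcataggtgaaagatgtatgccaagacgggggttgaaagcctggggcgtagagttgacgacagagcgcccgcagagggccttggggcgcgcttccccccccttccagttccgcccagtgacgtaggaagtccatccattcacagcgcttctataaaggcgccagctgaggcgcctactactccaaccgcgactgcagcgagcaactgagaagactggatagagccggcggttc
Hspa5: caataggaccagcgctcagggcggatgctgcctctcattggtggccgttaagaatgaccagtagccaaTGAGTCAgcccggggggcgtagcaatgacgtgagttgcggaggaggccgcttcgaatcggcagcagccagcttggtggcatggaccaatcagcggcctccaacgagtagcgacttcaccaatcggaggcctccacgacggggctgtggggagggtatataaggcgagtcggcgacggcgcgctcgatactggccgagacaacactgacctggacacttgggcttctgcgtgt
Igtp (chr11:58199306-58199605, plus strand) and Gbp7 (chr3:142530086-142530385, plus strand) were picked after their values were seen, as interferon-stimulated genes with the STAT string, which Gbp7 holds 2 times.
Igtp: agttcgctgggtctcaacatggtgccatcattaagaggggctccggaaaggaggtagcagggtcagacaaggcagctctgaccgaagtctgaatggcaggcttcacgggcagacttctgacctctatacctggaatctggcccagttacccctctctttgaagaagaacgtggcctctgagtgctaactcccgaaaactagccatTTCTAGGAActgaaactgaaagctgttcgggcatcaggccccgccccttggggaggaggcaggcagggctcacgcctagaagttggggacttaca
Gbp7: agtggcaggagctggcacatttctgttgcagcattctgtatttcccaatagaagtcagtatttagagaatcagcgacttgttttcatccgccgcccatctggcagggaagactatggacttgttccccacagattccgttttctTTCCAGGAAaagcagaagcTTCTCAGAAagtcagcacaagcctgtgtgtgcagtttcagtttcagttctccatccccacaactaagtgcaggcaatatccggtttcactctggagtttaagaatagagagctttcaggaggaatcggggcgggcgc
Of the 17834 tested genes 11808 matched a promoter that was searched, giving 15015 promoters. The STAT string was in 8.73% of 2210 promoters of genes called lower, 5.59% of 3254 of genes called higher, 7.08% of all tested and 8.3% of the 32851 in the whole table. For the interferon-stimulated genes it was in 12 of 37 promoters (32.4%), from 32 of the 47 genes, and the AP-1 string was in 9 of the same 37 (24.3%), but in 0 of 17 promoters of the AP-1 and ATF list. The AP-1 string was in 5.93% for genes called lower, 4.15% for genes called higher and 5.47% for all tested genes, and the CRE string in 4.03%, 2.8% and 2.79%. The NF-kB string was in 8.05%, 7.59% and 7.14%, and in 8 of 25 promoters (32%) of the NF-kB list.

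The list of other early response genes had 27 of 28 members tested. Of these 11 fell (40.7%, beside 14.3% of all tested genes) and 2 rose (7.41%, beside 18.9%, Zfp36l2 and Tob1). The median log2 fold change of -1.07 was -0.28 without A9, -1.59 without A10, -1.62 without B26 and -1.80 with GC offsets. Klf6, a zinc finger factor of the Krüppel-like family, had the smallest adjusted p of all genes together with Atf3. It stood at 608, 418 and 594 CPM with AG221 and at 76.8, 61.9 and 67.5 CPM with combined treatment, a separation several times wider than the spread within either group (log2 fold change -2.97, SE 0.19, edgeR adjusted p = 6.2e-06). Ier3, a survival gene induced by growth factors, stood at 208, 209 and 254 CPM against 60.2, 53.9 and 44.8 CPM (-2.08, SE 0.16, edgeR adjusted p = 2.6e-05). Zfp36, whose product binds and destabilizes cytokine mRNAs, stood at 1389, 1506 and 1753 CPM against 206, 96.0 and 148 CPM (-3.37, SE 0.33, edgeR adjusted p = 0.00013). Nr4a1, an orphan nuclear receptor, fell from 107, 234 and 229 CPM to 5.63, 6.01 and 4.02 CPM (-5.18, SE 0.69, edgeR adjusted p = 0.00094). Sgk1, a kinase that acts on ion channels, fell from 34.9, 28.2 and 36.2 CPM to 10.3, 11.2 and 9.16 CPM (-1.69, SE 0.18, edgeR adjusted p = 0.00022). No combined library overlapped an AG221 library in any of the 5. Without AG221 the list's median was -0.43 and 26 of 27 members were negative, with 0 called by edgeR or DESeq2, but the median was -0.17 without A3 (18 negative) and -0.19 without A16 (19 negative). The test of the difference called 8 members lower and 1 higher (2.82% and 5.6% of all tested genes). The lower calls were 5 without A10, A17 or B24 and 4 without B25, and the higher call was lost without A3, A4, A8, A10, A16, A17, B24 or B25. Klf6 (-2.39, edgeR adjusted p = 0.0014), Ier3 (-1.44, edgeR adjusted p = 0.0084), Zfp36 (-2.94, edgeR adjusted p = 0.0080) and Sgk1 (-1.54, edgeR adjusted p = 0.011) were called for it in every fit that left out 1 library. In 10 of the 27 (37.0%, beside 4.42% of all tested genes) all B libraries stood below all A libraries. Higher calls in combined treatment against AG221 were 4 without A9.

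NF-kB factors, their inhibitors and inflammatory targets were called lower more often than higher. Of 29 tested members of 30, 12 fell (41.4%, beside 14.3% of all tested genes) and 2 rose (6.9%, beside 18.9%, Relb and Bcl3). The median log2 fold change was -0.56 (-0.92 without B24). Upper quartile factors gave 16 lower calls and a median of -0.88, and GC offsets 17 lower and 1 higher and a median of -0.94. Without AG221 the median was -0.36, or -0.22 when A1, -0.68 when A14 and -0.21 when A16 was left out. Cxcl2, a chemokine that attracts neutrophils, stood at 81.8, 43.2 and 60.8 CPM with AG221 and at 0.0522, 0.380 and 0.278 CPM with combined treatment. The combined libraries were at or near the floor, and B24 held 1 count (log2 fold change -7.92, SE 0.67, edgeR adjusted p = 4.9e-05). Tnf, the inflammatory cytokine, stood at 55.3, 33.6 and 43.4 CPM against 3.76, 1.31 and 3.75 CPM (-3.92, SE 0.37, edgeR adjusted p = 9.8e-05). Ptgs2, which encodes cyclooxygenase 2 of prostaglandin synthesis, stood at 25.8, 19.2 and 27.2 CPM against 0.626, 0.380 and 0.971 CPM (-5.20, SE 0.41, edgeR adjusted p = 2.8e-05). Cd69, a surface protein that keeps lymphocytes in tissues, stood at 526, 251 and 356 CPM against 42.2, 30.5 and 42.9 CPM (-3.29, SE 0.27, edgeR adjusted p = 4.0e-05), and the interferon-inducible chemokine Cxcl10 at 50.5, 18 and 23.6 CPM against 0.209, 0.726 and 1.25 CPM (-5.37, SE 0.63, edgeR adjusted p = 0.00042). All 5 were without overlap. The subunit gene Nfkb1 was not called, at 281, 222 and 298 CPM against 229, 214 and 244 CPM, which overlap. Cxcl2, Cxcl10, Tnf and Ier3 were low in all 6 libraries with ruxolitinib against all 6 with vehicle or AG221, and they were lower still in combined and WT libraries, so both orders described above hold for them. The test of the difference called 7 of the list lower and 1 higher (2.82% and 5.6% of all tested genes). Cxcl2 (-6.46, edgeR adjusted p = 0.0037), Tnf (-3.29, edgeR adjusted p = 0.0080) and Ptgs2 (-4.46, edgeR adjusted p = 0.0025) held that call in every fit that left out 1 library, while Cd69 (-2.07, edgeR adjusted p = 0.016) and Cxcl10 (-4.41, edgeR adjusted p = 0.018) lost it without B25. Lower calls in combined treatment against AG221 were 7 without B25, and higher calls 5 without A9, 1 without B24 or B25 and 0 without A8 or A10. For the difference, lower calls were 4 without B25, and the higher call became 5 without A9, 3 without A14 and 0 without A3, A4, A8, A10, A17, B24 or B25.

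Of 16 tested of 17 feedback genes of the MAP kinase pathway, 3 rose (18.8%, beside 18.9% of all tested genes, Dusp7, Spred2 and Errfi1) and 2 fell (12.5%, beside 14.3%, Trib1 and Phlda1), with a median log2 fold change of 0.51 that was 0.01 with GC offsets, 0.25 with upper quartile factors, 0.24 without A8, 0.33 without A10, 0.08 without B24 and 0.85 without A9. Dusp6, the phosphatase of ERK that MAP kinase signalling induces, was not called, at 45.9, 127 and 59.5 CPM with AG221 and 167, 93.0 and 90.4 CPM with combined treatment. Its ranges overlapped through A9. Dusp7 stood at 2.39, 4.60 and 2.55 CPM against 10.2, 7.74 and 8.23 CPM (1.46, SE 0.30, edgeR adjusted p = 0.0042), and Spred2, an inhibitor of RAF activation, at 6.24, 14.4 and 6.84 CPM against 20.7, 22.5 and 19.5 CPM (1.19, SE 0.34, edgeR adjusted p = 0.017). Trib1, a pseudokinase that degrades C/EBP alpha, stood at 6.45, 21.5 and 9.46 CPM against 3.81, 2.07 and 2.82 CPM (-2.11, SE 0.51, edgeR adjusted p = 0.0081). These 3 were apart. The call of Spred2 was lost without A8 or A10. Higher calls were 6 without A9 and 5 with DESeq2, and lower calls 1 with at least 10 counts in every library, only the 6 libraries or without A8, A9, B24 or B26.

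Most markers of neutrophil lineage cells fell when ruxolitinib was added to AG221. Of 15 neutrophil lineage markers 12 fell (80%, beside 14.3% of all tested genes) and 0 rose (DESeq2 also called 12 lower and 0 higher), all 15 had combined libraries below AG221 libraries, and the median log2 fold change was -2.17. Summed, they stood at 22160, 19590 and 18680 CPM with AG221 and 4655, 5842 and 8235 CPM with combined treatment. Vehicle libraries stood at 8462, 13660 and 10360 CPM, ruxolitinib libraries at 20410, 12910 and 15160 CPM, and WT libraries at 4021, 4186 and 3850 CPM. AG221 libraries were the highest of the treated groups apart from the ruxolitinib library A14, and combined libraries were above WT but below every vehicle library. Elane, neutrophil elastase and the most abundant of the list per length, fell by 2.05 on the log2 scale (SE 0.33, edgeR adjusted p = 0.0023). Mpo, myeloperoxidase, fell by 1.61 (SE 0.23, edgeR adjusted p = 0.0013). Without AG221 the median was 0.83, with 0 of 15 negative and 0 called by edgeR or DESeq2, vehicle and ruxolitinib sums overlapped, and without A14 the median was 0.16 with 4 of 15 negative. The test of the difference called 9 of 15 lower with AG221, beside 2.82% of all tested genes. These calls were 3 without B24 or B25, 4 without A4 or A17, 5 without A8, A10 or A14 and 14 without A9. In the first comparison, 7 markers were called lower without B24. None of these markers stood at or under 3 counts in every library. LSK cells express several of them, and the part of these markers in the other results was not tested.

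Monocyte and dendritic cell markers fell in 8 of 13 cases (61.5%, beside 14.3% of all tested genes) and rose in 0. DESeq2 also called 8 lower and 0 higher, and the median was -1.26. Summed, they stood at 3367, 2405 and 2565 CPM with AG221 and at 978, 853 and 1637 CPM with combined treatment, again without overlap. Lyz2, lysozyme and the most abundant of these per length, fell by 0.63 on the log2 scale (SE 0.23, edgeR adjusted p = 0.048), a call lost with only the 6 libraries and without A8, A10, B24, B25 or B26. Macrophage markers fell in 4 of 9 cases (44.4%, beside 14.3%), namely Adgre1, Cd68, Hmox1 and Vcam1. The macrophage markers had a median of -1.35, with Cd68 the most abundant per length. Their sums were 224, 166 and 128 CPM against 48.4, 52.7 and 59.7 CPM. In both lists every combined library was lower than every AG221 library. Lower calls among monocyte markers were 5 with only the 6 libraries or without A8, 3 without B24 and 4 without B25, 1 marker was called higher without A9, and lower calls among macrophage markers were 2 without B24 or B25. Hp, the gene of haptoglobin, a plasma protein that neutrophil precursors also make, had 1 of the 5 smallest adjusted p on the lower side of the difference test. It stood at 412, 262 and 281 CPM with AG221 and at 42.3, 54.8 and 74.8 CPM with combined treatment (-2.47, SE 0.26, edgeR adjusted p = 0.00022). Dmkn, dermokine, stood at 43.2, 31.9 and 33.3 CPM against 4.33, 6.53 and 7.49 CPM (-2.56, SE 0.25, edgeR adjusted p = 0.00013). Ruxolitinib minus vehicle gave 0.53 for Hp and 0.87 for Dmkn, not called, and the difference was -3 (edgeR adjusted p = 0.0036) and -3.43 (edgeR adjusted p = 0.0014), called in every fit that left out 1 library.

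**Figure D4:**
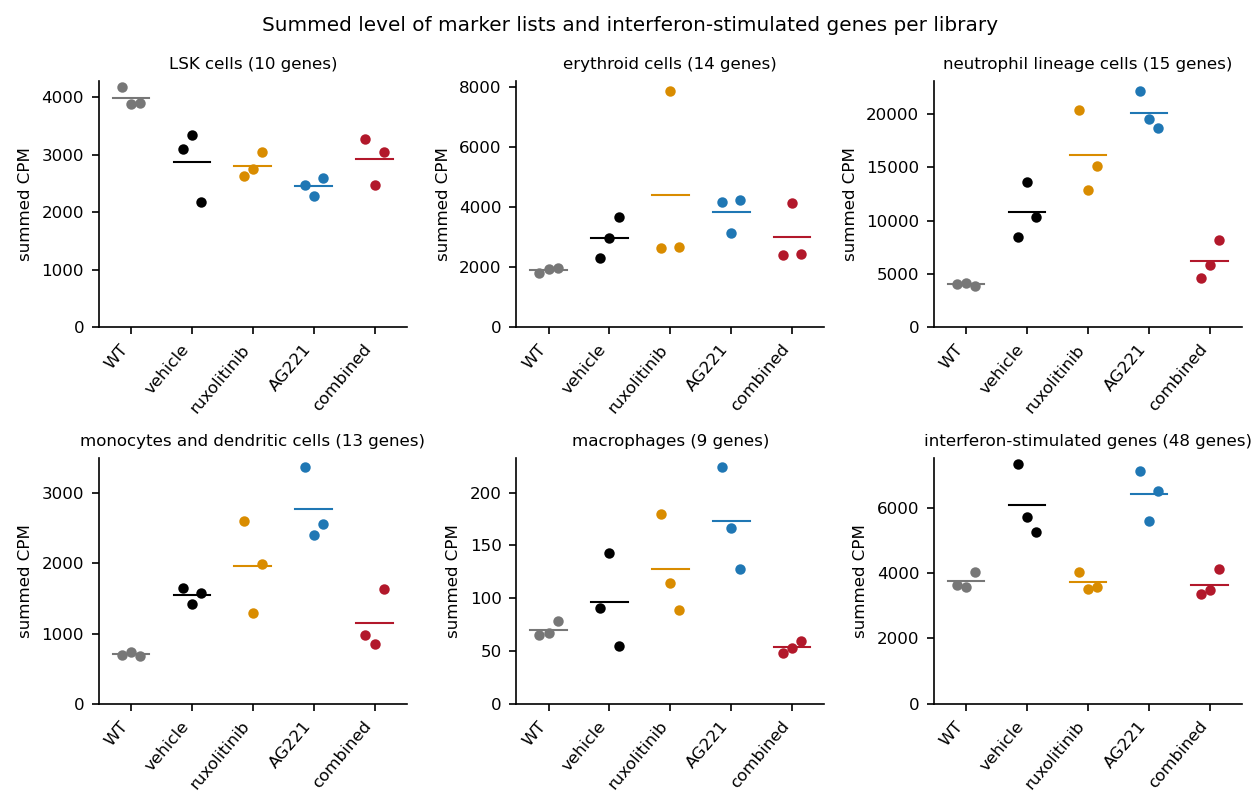
Summed CPM of 5 marker lists and of the interferon-stimulated genes in each library of the 5 groups, with dots for libraries and lines for group means. Neutrophil, monocyte and macrophage markers are lower in every combined library than in every AG221 library, LSK markers overlap, and interferon-stimulated genes are low in both groups given ruxolitinib and in WT.

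Markers of other lineages were called in both directions. Of all tested genes, 18.9% were called higher and 14.3% lower, and several of the shares below lie near or under these. The lineage stain of the sort covered T, NK, B, myeloid and erythroid cells. Erythroid markers, with Car1 the most abundant per length, fell in 4 of 14 cases (28.6%) and rose in 1 (7.14%, Klf1), with sums of 4168, 3152 and 4231 CPM against 2406, 4128 and 2442 CPM that overlap through B25. Their lower calls were 2 with DESeq2 and without A8, A9, A10, B25 or B26 and 1 without B24, and the higher calls 0 without A8, A10 or B25 and 2 without A9. Megakaryocyte markers, with Pf4 the most abundant, rose in 3 of 10 tested cases (30%, Itga2b, Gp1bb and Gp5) and fell in 0, and their median of 0.24 was -0.08 with upper quartile factors, -0.11 with GC offsets or without B25, 0.09 with at least 10 counts in every library, 0.08 without A8, 0.14 without A9, 0.36 without A10 and 0.48 without B26. Their sums, 726, 869 and 894 CPM against 1005, 1457 and 778 CPM, overlapped. Mast cell and basophil markers fell in 2 of 9 cases (22.2%, Cpa3 and Hdc, 4 without B26, 1 without A10, B24 or B25, 5 with upper quartile factors and 4 with GC offsets), with sums of 737, 885 and 895 CPM against 306, 433 and 532 CPM and Cpa3 the most abundant. T and NK markers fell in 1 of 10 tested cases (10%, Nkg7, the most abundant, 2 with DESeq2, GC offsets, only the 6 libraries or without B25 or B26, and 3 with upper quartile factors), with sums of 825, 701 and 755 CPM against 445, 434 and 461 CPM. In both lists the combined sums lay below the AG221 sums. Mast cell and basophil markers had a median of -0.99, and of -1.06 for ruxolitinib minus vehicle, where 7 of 9 were negative and 0 were called. Plasma cell markers rose in 2 of 8 cases (25%, Sdc1 and Xbp1, and 1 without A8, A10, B24, B25 or B26), with sums of 40.5, 117 and 36.0 CPM against 159, 207 and 210 CPM, without overlap, and Xbp1 the most abundant. B-lineage markers, with Cd79b the most abundant, rose or fell in 0 of 11 cases in edgeR and DESeq2, and their sums overlapped at 64.7, 47.7 and 61.8 against 66.2, 32.7 and 57.3 CPM. Endothelial and stromal markers, with Emcn the most abundant, rose in 1 of 8 tested cases (12.5%, Col1a2, called without A9 but in no other fit that left out 1 library, nor with RLE, upper quartile factors or GC offsets), with sums of 7.65, 9.38 and 17.4 CPM against 13.2, 26.6 and 8.56 CPM. The part of these cells in the other results was not tested. Tcrg-C1, the remaining gene called for ruxolitinib against vehicle, stood at 28.1, 14.4 and 22.0 CPM with AG221 and at 1.62, 2.87 and 1.57 CPM with combined treatment, well apart (-3.40, SE 0.43, edgeR adjusted p = 0.00069). Against vehicle it fell by 3.17 (SE 0.42, edgeR adjusted p = 0.026), a call lost without A3, A14, A16 or A17 and with only the 6 libraries.

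Of 58 genes of the MYC network and of ribosome biogenesis, 35 fell (60.3%) and 9 rose (15.5%). Of all tested genes, 14.3% fell and 18.9% rose, so the share that rose was under that of all genes. The list's median log2 fold change was -0.71, beside 0.11 over all tested genes. Their sum was 23710, 18700 and 20650 CPM with AG221 and 12560, 15540 and 14520 CPM with combined treatment, with every combined library lower. Max, the DNA-binding partner of MYC, stood at 262, 191 and 232 CPM against 106, 107 and 135 CPM (-0.98, SE 0.16, edgeR adjusted p = 0.0023). Pa2g4, a nucleolar protein gene of ribosome assembly, stood at 429, 263 and 357 CPM against 112, 140 and 156 CPM (-1.36, SE 0.22, edgeR adjusted p = 0.0023), and Ldha, lactate dehydrogenase of glycolysis and the most abundant of the list per length, at 3857, 2415 and 3097 CPM against 1351, 1852 and 1721 CPM (-0.93, SE 0.21, edgeR adjusted p = 0.0063). Groups were separate in all 3. Among the 9 that rose were Myc itself, Mxd3, a MAX partner that opposes MYC, from 5, 7.36 and 6.22 CPM to 15.7, 11.8 and 11.7 CPM (1.07, SE 0.21, edgeR adjusted p = 0.0035), and Noc2l, a nucleolar gene with 20.9% of its exons overlapped antisense, from 33.5, 47.1 and 22.9 CPM to 247, 270 and 105 CPM (2.59, SE 0.48, edgeR adjusted p = 0.0032). In 13 of the 58 (22.4%, beside 4.42%) all B libraries stood below all A libraries. Without B24, 21 were called lower, and without A9, 14 were called higher.

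Of 76 nuclear genes of the respiratory chain, 45 fell (59.2%, beside 14.3% of all tested genes) and 3 rose (3.95%, beside 18.9%). Their median was -0.55 (-0.86 with upper quartile factors). Cycs, cytochrome c, stood at 187, 131 and 150 CPM with AG221 and at 57.5, 73.1 and 68.9 CPM with combined treatment (-1.23, SE 0.19, edgeR adjusted p = 0.0022). Atp5g1, of the ATP synthase ring, stood at 298, 218 and 279 CPM against 108, 156 and 130 CPM (-1.01, SE 0.20, edgeR adjusted p = 0.0036), Uqcrb, of complex III, at 213, 153 and 212 CPM against 93.7, 105 and 97.5 CPM (-0.96, SE 0.16, edgeR adjusted p = 0.0024), and Ndufb3, of complex I, at 110, 90.1 and 106 CPM against 57.0, 61.2 and 55.6 CPM (-0.82, SE 0.15, edgeR adjusted p = 0.0029). The groups were apart in each of the 4. Atp5b, the most abundant of the list per length, was not called and overlapped, at 594, 2435 and 686 CPM against 1957, 2467 and 2320 CPM, with A9 at the combined level. Lower calls were 25 without A8, 29 without A10 and 19 without B24, and higher calls 0 without A8 or A10, 1 without B25 or with only the 6 libraries and 13 without A9. Of 10 tested genes among the 13 encoded in mitochondrial DNA, 7 fell (70.0%, beside 14.3% of all tested genes) and 0 rose. DESeq2 also called 7 lower and 0 higher. The median was -0.53 (-0.84 with upper quartile factors), and mt-Nd4l and mt-Atp8 stood at or under 3 counts. Mt-Nd1 stood at 1667, 1246 and 1566 CPM against 905, 960 and 1018 CPM (-0.64, SE 0.13, edgeR adjusted p = 0.0048) and mt-Nd4 at 526, 440 and 504 CPM against 330, 307 and 381 CPM (-0.53, SE 0.13, edgeR adjusted p = 0.0077), both without overlap. The others called were mt-Nd2 at 380, 296 and 365 against 221, 214 and 244 CPM, mt-Nd5 at 1150, 837 and 959 against 662, 568 and 789 CPM, mt-Nd6, mt-Cytb and mt-Co1, the last at 3989, 3018 and 3726 against 2483, 2491 and 3018 CPM. The lower calls were 3 without A8 and 4 with only the 6 libraries or without A10 or B25, with mt-Nd5 lost with only the 6 libraries or without A8 or B25, and mt-Co1 lost with no filter, only the 6 libraries, or without A8, A10, B24 or B25.

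**Figure D5:**
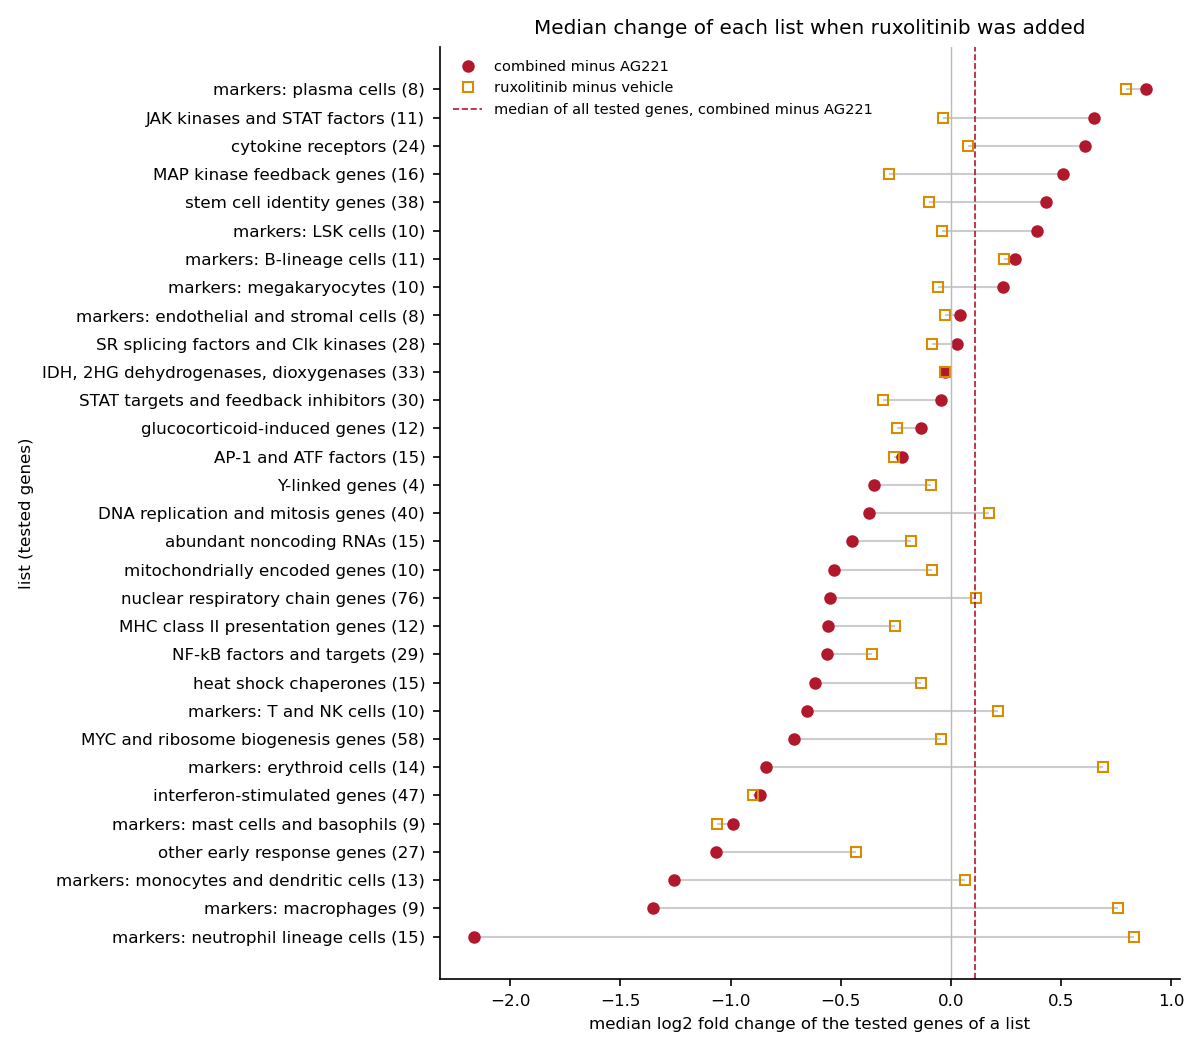
Median log2 fold change of the tested genes of each list, as filled circles for combined treatment minus AG221 and open squares for ruxolitinib minus vehicle, with the number of tested genes in brackets and a dashed line at the median of all tested genes in the first comparison. The 2 symbols nearly coincide at about -0.9 for interferon-stimulated genes and lie on opposite sides of zero for neutrophil and macrophage markers. They are also close together away from zero for mast cell and basophil markers (-0.99 and -1.06) and for plasma cell markers (0.888 and 0.795).

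Genes of stem cell identity were among those that rose. Of 38 on the list, 11 rose (28.9%, beside 18.9%) and 0 fell (DESeq2 called 12 higher and 2 lower, and upper quartile factors 10 and 2), with a median log2 fold change of 0.43 (0.26 without A8) that was 0.13 with upper quartile factors and 0.18 with GC offsets. Lmo2, a bridging protein of blood stem cell transcription complexes, stood at 91.2, 204 and 108 CPM with AG221 and at 792, 712 and 525 CPM with combined treatment (2.33, SE 0.37, edgeR adjusted p = 0.0023). Gata2, a factor needed for stem cell maintenance, stood at 57.6, 178 and 74.0 CPM against 402, 537 and 268 CPM (1.96, SE 0.43, edgeR adjusted p = 0.0054), and Runx1, which directs definitive blood formation, at 44.1, 82.9 and 42.9 CPM against 188, 184 and 167 CPM (1.67, SE 0.37, edgeR adjusted p = 0.0056). Every combined library was above every AG221 library, and A9 was the highest of the AG221 libraries in all 3. Egfl7, a secreted factor of endothelial and stem cells with 9.41% of its exons overlapped on the same strand, stood at 25, 34.2 and 35.3 CPM against 75, 66.6 and 62.3 CPM (1.11, SE 0.22, edgeR adjusted p = 0.0037). Lmo2 and Egfl7 were the 2 of the list with all B libraries above all A libraries. Calls in the list were 5 without A8, 6 without A10 and 5 without B24, and 1 member was called lower without A9. Of the 10 LSK markers, Flt3 and Hlf rose (20%, beside 18.9% of all tested genes) and Cd48 fell (10%, beside 14.3%). The higher calls were 0 without A8, A10 or B24 and 1 with only the 6 libraries or without B26. The lower calls were 2 with DESeq2, upper quartile factors, GC offsets, no filter or only the 6 libraries, and 0 without B24 or B25.

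The protein-coding genes with the smallest adjusted p on the higher side and no overlap were, in order, Prkcq, Klhl42, Cfl2, Fam208a, Ccng2, Crebzf, Rnf145 and Trim59. Prkcq, protein kinase C theta, stood at 21.0, 26 and 26.1 CPM with AG221 and at 67.1, 64.3 and 55.6 CPM with combined treatment (log2 fold change 1.35, SE 0.15, edgeR adjusted p = 0.00029). Cfl2, a cofilin that severs actin filaments, stood at 19.2, 21.1 and 20.5 CPM against 49.7, 47.6 and 43.5 CPM (1.21, SE 0.15, edgeR adjusted p = 0.00053). Crebzf, a bZIP protein gene, stood at 8.34, 9.85 and 5.96 CPM against 35.5, 30.3 and 26.4 CPM (1.93, SE 0.25, edgeR adjusted p = 0.00089). In these the spread within groups was small beside the gap between them. Ccng2, cyclin G2, which accompanies growth arrest, stood at 22.2, 26.5 and 16.8 CPM against 182, 148 and 131 CPM (2.82, SE 0.37, edgeR adjusted p = 0.00089). Klhl42 had log2 fold changes of 2.54 (SE 0.29, edgeR adjusted p = 0.00035), Rnf145, a ubiquitin ligase of sterol sensing, 2.19 (SE 0.29, edgeR adjusted p = 0.00094) and Trim59 2.74 (SE 0.36, edgeR adjusted p = 0.00095). Fam208a, of the HUSH complex that silences repeats, had 1.54 (SE 0.20, edgeR adjusted p = 0.00075), with 12.9% of its exons overlapped antisense. All 8 were without overlap, and in each all B libraries of the series stood above all A libraries. Prkcq (1.58, edgeR adjusted p = 0.0061), Cfl2 (1.35, edgeR adjusted p = 0.0089) and Crebzf (2.47, edgeR adjusted p = 0.0079) were called for the difference in every fit that left out 1 library, as was the zinc finger gene Zfp397 (1.31, edgeR adjusted p = 0.0095), which stood at 39.5, 58.5 and 43.5 CPM with AG221 and 99.0, 88.0 and 95.0 CPM with combined treatment. Phtf2 stood at 53.7, 58.3 and 55.0 CPM against 99.8, 84.0 and 85.8 CPM, and its call for the difference (0.94, edgeR adjusted p = 0.016) was lost without A8, A10, A17 or B24.

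Among protein-coding genes with a mean of at least 10 CPM in the combined group, the largest rises without overlap were in Zfp771, Scand1, Rsrp1, Sox4 and Tmem160. Zfp771 and Scand1 stood at or near the floor in A8 and A10, so the size of their changes and their rank are uncertain. Rsrp1, an arginine and serine rich protein gene of the SR list, stood at 20.2, 85.9 and 19.2 CPM with AG221 and at 1358, 1001 and 647 CPM with combined treatment. The lowest combined library was several times above the highest AG221 library, A9 (log2 fold change 4.59, SE 0.75, edgeR adjusted p = 0.0023). Zfp771, a zinc finger gene, stood at 0.128, 0.750 and 0.145 CPM against 18.8, 19.8 and 2.73 CPM (5.36, SE 0.93, edgeR adjusted p = 0.0027), and Tmem160 at 0.556, 3.71 and 0.8 CPM against 44.6, 47.9 and 12.8 CPM (4.39, SE 0.87, edgeR adjusted p = 0.0037). Sox4, a transcription factor of early B and progenitor cells, stood at 2.86, 5.96 and 2.36 CPM against 132, 84.5 and 23.9 CPM (4.43, SE 0.76, edgeR adjusted p = 0.0026), with 54.6% of its exon length overlapped antisense. Scand1 had 0, 1.74 and 0.0727 CPM against 27.7, 27.8 and 8.23 CPM (5.18, SE 1.24, edgeR adjusted p = 0.0081), with 40.5% overlapped antisense, A8 held no count, and without A9 the log2 fold change was 8.93. B26 was the lowest combined library in all 5 and A9 the highest AG221 library. In WT libraries Rsrp1 stood at 701, 1217 and 575 CPM, and all 5 genes were higher in every B library than in every A library. Of 28 SR splicing factors and Clk kinases, 10 rose (35.7%, beside 18.9% of all tested genes) and 7 fell (25%, beside 14.3%). Their median of 0.03 was -0.02 with RLE, -0.25 with upper quartile factors, -0.15 with GC offsets and -0.01 with no filter. It was -0.05 without A8, -0.04 without A10 and 0.29 without A9. Of these 28 genes, 6 rose without A8 or A10, and 11 fell with upper quartile factors. Srsf9 stood at 8.68, 13.2 and 6.84 CPM against 65.1, 68.4 and 18.4 CPM (2.40, SE 0.45, edgeR adjusted p = 0.0033), whereas Tra2a fell from 148, 102 and 113 CPM to 52.3, 55.2 and 67.6 CPM (-1.05, SE 0.19, edgeR adjusted p = 0.0032) and Srrm1 from 433, 336 and 400 CPM to 223, 235 and 248 CPM (-0.73, SE 0.14, edgeR adjusted p = 0.0032). All are parts of the splicing machinery, and their groups were apart. Srsf5 was not called, at 1193, 947 and 1234 against 966, 903 and 1024 CPM.

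Idh2, the gene whose mutant product AG221 inhibits, stood at 55.1, 335 and 65.9 CPM with AG221 and at 499, 465 and 568 CPM with combined treatment. A9 alone among the AG221 libraries came near the combined level, and no library crossed it (log2 fold change 1.75, SE 0.61, edgeR adjusted p = 0.042). The log2 fold change was 3.08 without A9, and the call was lost with only the 6 libraries and when A8, A10, B24, B25 or B26 was left out. Counts do not tell the mutant from the normal transcript. In the list of 33 isocitrate and 2-hydroxyglutarate dehydrogenases and 2-oxoglutarate dioxygenases, 6 rose (18.2%, beside 18.9% of all tested genes) and 6 fell (18.2%, beside 14.3%), with a median of -0.03 that was 0.01 without B25, and 5 rose and 11 fell with upper quartile factors or GC offsets, where the median was -0.34. Idh1, the cytosolic isocitrate dehydrogenase, stood at 240, 140 and 174 CPM against 76.3, 82.8 and 115 CPM (-1.01, SE 0.21, edgeR adjusted p = 0.0042). Kdm5b, an H3K4 demethylase, stood at 31.8, 48.1 and 33.2 CPM against 170, 148 and 110 CPM (1.92, SE 0.29, edgeR adjusted p = 0.0021), and Kdm4b, an H3K9 demethylase, at 5.68, 14.3 and 5.82 CPM against 61.7, 58.2 and 34.7 CPM (2.59, SE 0.46, edgeR adjusted p = 0.0029). Fto, an RNA demethylase, stood at 317, 206 and 291 CPM against 163, 154 and 168 CPM (-0.74, SE 0.15, edgeR adjusted p = 0.0044). These 4 dioxygenase and dehydrogenase genes were without overlap. P4hb, the most abundant of the list per length, was not called, at 582, 1517 and 578 against 796, 936 and 1099 CPM. Higher calls were 12 without A9 and 3 with only the 6 libraries or without A8, A10 or B24, and lower calls 2 without B24.

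Of 40 DNA replication and mitosis genes, 5 rose (12.5%, beside 18.9% of all tested genes) and 8 fell (20%, beside 14.3%), with a median of -0.37. The calls were 4 higher and 23 lower with upper quartile factors, 4 and 20 with GC offsets (medians of -0.68 and -0.59), 5 and 19 with at least 10 counts in every library, 6 and 3 with no filter, and 2 and 2 with only the 6 libraries. Pcna, the sliding clamp of DNA polymerases, stood at 446, 337 and 441 CPM with AG221 and at 258, 284 and 289 CPM with combined treatment (-0.56, SE 0.15, edgeR adjusted p = 0.012), and Cdc45, of the replicative helicase, at 217, 139 and 160 CPM against 88.4, 117 and 113 CPM (-0.70, SE 0.18, edgeR adjusted p = 0.013). Ccna2, cyclin A2, with 12.5% of its exons overlapped antisense, stood at 20.6, 60.6 and 15.1 CPM against 256, 337 and 183 CPM (3.02, SE 0.58, edgeR adjusted p = 0.0035), and Ccne1, cyclin E1, at 9.36, 12.9 and 7.46 CPM against 35.3, 52.6 and 19.1 CPM (1.85, SE 0.37, edgeR adjusted p = 0.0039). Groups did not overlap in these 4, while Rrm1, a ribonucleotide reductase subunit, was not called and overlapped at 1291, 784 and 1020 against 601, 786 and 726 CPM. Pcna lost its call without B24 and Cdc45 without A8 or B24. Lower calls were 23 without A9, 3 without B25, 2 without A10 or B26, 1 without A8 and 0 without B24, and higher calls ranged from 2 (without A8, A10 or B25) and 3 (without B24 or B26) to 8 (without A9).

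Stress and hormone response lists were mixed, to be read beside 18.9% of all tested genes that rose and 14.3% that fell. Of 15 tested heat shock chaperones 8 fell (53.3%) and 2 rose (13.3%), with a median of -0.62 (-0.93 with upper quartile factors, where 1 rose). Hspa5 stood at 2733, 2482 and 2351 CPM with AG221 and at 665, 785 and 952 CPM with combined treatment (-1.66, SE 0.15, edgeR adjusted p = 9.6e-05). It is the gene whose promoter is printed with an AP-1 string, and its libraries were far apart. Hspa8, the constitutive HSC70, stood at 2461, 1211 and 1634 CPM against 661, 725 and 795 CPM (-1.28, SE 0.25, edgeR adjusted p = 0.0036), and Hsp90ab1 at 3802, 2490 and 2906 CPM against 1744, 2090 and 2157 CPM (-0.62, SE 0.17, edgeR adjusted p = 0.015). Hspa4, a nucleotide exchange factor for HSP70, rose from 76.4, 114 and 59.0 CPM to 288, 319 and 178 CPM (1.66, SE 0.37, edgeR adjusted p = 0.0061), as did its relative Hspa4l (0.65, SE 0.16, edgeR adjusted p = 0.0088). None of these groups overlapped. Hsp90ab1 lost its call with only the 6 libraries and without A8 or B24, and Hspa4l with upper quartile factors and without A8 or A10. Lower calls were 4 without A8 and 5 with only the 6 libraries or without B24, and higher calls 1 without A8 or A10 and 5 without A9. Of 12 glucocorticoid-induced genes 3 rose (25%) and 3 fell (25%), with a median of -0.13 that was 0.05 without X and Y genes, 0.20 without A9, 0.07 without B26, -0.43 without A8, -0.26 without A10, -0.34 without B24, -0.41 with upper quartile factors, -0.45 with GC offsets and -0.38 with at least 10 counts in every library, where 1 rose. Per1, a clock gene that also answers glucocorticoids, stood at 46.5, 60.0 and 58.7 CPM against 11.1, 6.88 and 12.1 CPM (-2.46, SE 0.32, edgeR adjusted p = 0.00092), Cebpd, with 15.0% of its exons overlapped antisense, at 0.385, 1.88 and 0.255 CPM against 12.3, 11.5 and 5.23 CPM (3.55, SE 0.89, edgeR adjusted p = 0.0098), and Errfi1, a feedback inhibitor of the EGF receptor, at 0.0855, 0.516 and 0.291 CPM against 2.30, 1.42 and 1.20 CPM (2.45, SE 0.58, edgeR adjusted p = 0.0078). These were apart, and Tsc22d3, or GILZ, was not called at 263, 281 and 327 against 274, 154 and 236 CPM.

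Among 15 tested long noncoding RNAs of a list of 20, 6 fell (40.0%) and 1 rose (6.67%, 2 without A9). Of all tested genes, 14.3% fell and 18.9% rose. The list's median was -0.45 (-0.26 without A9, -0.23 without B25 and -0.76 with upper quartile factors), and H19 stood at or under 3 counts. Neat1, the scaffold of paraspeckles, stood at 373, 290 and 293 CPM with AG221 and at 95.4, 84.2 and 88.2 CPM with combined treatment (-1.84, SE 0.17, edgeR adjusted p = 9.7e-05). Its difference between both additions was -1.60 (edgeR adjusted p = 0.0080), called in every fit that left out 1 library. Snhg15 stood at 75.7, 58.6 and 72.8 CPM against 29.1, 29.2 and 31.1 CPM (-1.21, SE 0.14, edgeR adjusted p = 0.00044), and Gas5 at 528, 404 and 503 CPM against 274, 273 and 292 CPM (-0.77, SE 0.13, edgeR adjusted p = 0.0025), where 9.79% and 17.8% of exon length overlaps another gene on the same strand. Both are hosts of small nucleolar RNAs. Snhg20 rose from 3.46, 15.0 and 6.69 CPM to 35.9, 31.6 and 32 CPM (1.99, SE 0.38, edgeR adjusted p = 0.0036). In all 4 the groups were separate. Of 12 genes of MHC class II presentation, which interferon gamma induces through Ciita, 0 were called by edgeR (DESeq2 called 2 lower, and edgeR 4 lower with upper quartile factors and 6 with GC offsets), with a median of -0.56 (-0.85 with upper quartile factors). Ciita stood at 12.9, 17.8 and 9.60 CPM against 6.89, 2.97 and 5.04 CPM, and Cd74, the invariant chain and the most abundant per length, at 513, 600 and 161 CPM against 280, 126 and 189 CPM. Ctss, a protease that trims the invariant chain, stood at 55.4, 44.2 and 47.2 against 26.8, 13.5 and 41.1 CPM, and H2-DMb1, a peptide exchange chain, at 85.4, 67.1 and 56.8 against 52.4, 41.3 and 51.9 CPM. Groups were apart in Ciita, Ctss and H2-DMb1 (25%, beside 44.6% of all tested genes in either direction) and overlapped in the other 9. RLE, at least 10 counts in every library and only the 6 libraries each gave 1 lower call and no filter 2, and 1 member was called higher without B25 and 1 lower without B26. The Y-linked genes Ddx3y, Uty, Eif2s3y and Kdm5d were expressed in all 6 libraries, summing to 502, 368 and 511 CPM with AG221 and 285, 334 and 415 CPM with combined treatment, and edgeR and DESeq2 called 0 of the 4 (1 lower without A9, and 2 with upper quartile factors). Xist, the RNA that coats the inactive X, was low throughout at 9.19, 5.35 and 3.42 CPM against 0.365, 3.49 and 1.62 CPM, and neither it nor Tsix was called.

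Genes called both between mutant vehicle cells and WT cells and for adding ruxolitinib to AG221 mostly changed in opposite directions. Vehicle against WT, from 6 libraries that the main comparison does not use, called 5937 genes (33.3% of those tested), 2747 higher (15.4%) and 3190 lower (17.9%). Of these 2675 were also called between combined treatment and AG221, 45.1% of the first list and 45.2% of the second. The direction was opposite for 2627 of the 2675 (98.2%) and the same for 48. These genes had passed a call in both comparisons, and the share of opposite signs over all tested genes was not counted. The median log2 fold change over all tested genes was -0.09 for vehicle minus WT and 0.11 for combined treatment minus AG221. Genes higher in vehicle and lower in combined treatment numbered 1514, and genes lower in vehicle and higher in combined treatment 1113. Klf6 stood at 970, 945 and 675 CPM with vehicle and 78.5, 68.7 and 67.7 CPM in WT cells, and its combined libraries lay between 61.9 and 76.8 CPM. Fos stood at 2712, 4975 and 1820 CPM with vehicle and 126, 111 and 79.8 CPM in WT cells, beside 33.4 to 129 CPM with combined treatment. For both genes the combined libraries had the level of WT cells. Vehicle is named A and WT is named B, so this comparison and the first both set the letters against each other, and a return toward WT cannot be told apart from the letter. The WT libraries also differ in sex-linked RNA, with X-inactivation RNAs summing to 512, 456 and 478 CPM and the 4 Y-linked genes to at most 0.134 CPM. Immunoglobulin and T cell receptor genes took 0.954%, 2.39% and 0.68% of WT counts and 0.0346%, 0.0161% and 0.0289% with vehicle. Plasma cell markers summed to 730, 1315 and 605 CPM in WT libraries and 68.1, 132 and 158 CPM with vehicle. The part of such cells in the vehicle calls was not tested. The vehicle calls were 1306 higher and 3586 lower with upper quartile factors and 6270 and 2116 with GC offsets, and the count was 3493 without A1, 3717 without A4 and 1901 without B30. The interferon-stimulated genes Irf7 and Rtp4 did not follow that course, since WT cells held 32.3, 36.5 and 38.8 CPM of Irf7 and 44.9, 55.4 and 63.9 CPM of Rtp4, above the combined and the AG221 libraries alike.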

How the data were processed

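The comparison used the raw counts the authors deposited, 15 libraries and 45232 gene IDs, aligned by the authors with STAR 2.5.1a to mm10 (GRCm38). The deposited normalized table, counts divided by DESeq2 1.6.3 size factors, was not used. GENCODE gave a symbol to 44585 IDs and none to 647. The strand setting of the counting is not stated.

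One edgeR 4.0.16 quasi-likelihood fit of 5 groups (R 4.3.3, filterByExpr, TMM, 10 residual degrees of freedom) gave all contrasts, with Benjamini-Hochberg adjustment over 17834 tested genes and calls under 0.05. The common biological coefficient of variation was 0.313. The SE is the log2 fold change over the root of F. Alternatives were DESeq2 1.42.0, RLE and upper quartile factors, offsets for GC content, other filters, other thresholds, leaving out gene classes, the 6 libraries alone, and leaving out each library. Library measures used an exact permutation test.

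Named genes were Jak1, Jak2, Idh2, Stat5a and Stat5b, and genes picked by the rules that follow. In each direction, 8 were taken by the smallest adjusted p (minimum 1 CPM) and 5 by the largest fold change (minimum 10 CPM). Both sets were limited to protein-coding genes without overlap. Up to 4 members of each gene list were taken by adjusted p, plus its most abundant member. The 5 with the smallest adjusted p of the difference test in each direction, and the genes called for ruxolitinib against vehicle, were also named. Other list members, Elane, Mpo and Lyz2 among them, were named after their values were seen. The promoters of Igtp and Gbp7, and the count of genes by library order, were also added after values were seen. Members and lists were chosen with earlier results of these data known. Promoters on chromosome 18 were left out. The result of 1 gene chosen by these rules is not reported here.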

Additional observations from a re-analysis of the deposited data

Results flagged for a closer look

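edgeR's test of the difference between adding ruxolitinib with AG221 and adding it without AG221 singled out 1502 of 17834 genes at an adjusted p under 0.05. That is 8.42% of the tested genes. Among the 116 named genes it singled out 56, 28 on each side. Named genes were picked in part by their values in combined treatment against AG221, which enter this test, and in part by this test itself. A high count among them follows from that choice and is not a result about them.

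Named genes with a lower change in the presence of AG221, as log2 difference of both additions: Cxcl2 -6.46, Atf3 -4.97, Ptgs2 -4.46, Nr4a1 -4.41, Cxcl10 -4.41, Fos -3.79, Fosb -3.61, Dmkn -3.43, Tnf -3.29, Hp -3, Zfp36 -2.94, Klf6 -2.39, Cd69 -2.07, Per1 -1.85, Osm -1.84, Neat1 -1.60, Sgk1 -1.54, Ier3 -1.44, Cycs -1.37, Hspa5 -1.28, Pa2g4 -1.26, Atp5g1 -1.23, Idh1 -1.22, Uqcrb -1.06, Ndufb3 -0.92, Cdc45 -0.90, mt-Nd1 -0.71, Srrm1 -0.70.

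Named genes with a higher change in the presence of AG221, as log2 difference of both additions: Zfp771 4.90, Rsrp1 4.32, Tmem160 4.26, Sox4 3.97, Ccna2 2.87, Ccng2 2.65, Noc2l 2.63, Trim59 2.60, Crebzf 2.47, Kdm4b 2.44, Gata2 2.41, Klhl42 2.26, Lmo2 2.25, Srsf9 2.21, Snhg20 2.19, Rnf145 2.07, Runx1 1.97, Kdm5b 1.87, Jak1 1.79, Hspa4 1.79, Sh2b3 1.63, Prkcq 1.58, Fam208a 1.50, Stat5b 1.39, Cfl2 1.35, Zfp397 1.31, Socs6 1.24, Phtf2 0.94.

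Of these 56 genes, 17 were called in each of the 12 fits that left out 1 library.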

How the results depend on the processing

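Genes called by edgeR between combined treatment and AG221 numbered 5917, and 3788 when only the 6 libraries entered the fit, 13 at an adjusted p under 0.0001 (all lower) and 3335 with a change of at least 2-fold as well. Leaving out 1 library gave 3002 to 8140.

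For ruxolitinib against vehicle 3 genes were called, 50 with DESeq2, 17 with no filter beyond 1 count and 0 with only the 6 libraries (453 at an unadjusted p under 0.05). Leaving out 1 library gave 0 to 9.

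For the difference between both additions 1502 genes were called, 3671 with DESeq2, 3124 with upper quartile factors and 2485 with at least 10 counts in every library. Leaving out 1 library gave 44 to 6087.

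For vehicle against WT 5937 genes were called, and 3406 with at least 10 counts in every library. Leaving out 1 library gave 1901 to 5907.

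Of 101 named genes called, DESeq2, RLE factors, leaving out X and Y genes and leaving out A9 kept all. Upper quartile factors lost 4, GC offsets 2, no filter 2, the 6 libraries alone 9, and leaving out A8, A10, B24, B25 or B26 lost 13, 9, 10, 8 and 4. No sign reversed.

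Medians of some lists changed sign. For SR splicing factors, 0.03, it was -0.0190 with RLE factors, -0.246 with upper quartile factors, -0.0124 with no filter and -0.146 with GC offsets, and leaving out 1 library gave -0.0485 (A8) to 0.289 (A9). For glucocorticoid-induced genes, -0.13, it was 0.0473 without X and Y genes, and leaving out 1 library gave -0.430 (A8) to 0.202 (A9). For megakaryocyte markers, 0.239, it was -0.0778 with upper quartile factors, -0.106 with GC offsets and -0.112 without B25. Leaving out 1 library gave -0.409 (A10) to 0.629 (A9) for AP-1 and ATF factors, -0.203 (A10) to 0.409 (A9) for STAT targets, and -0.0914 (B24) to 0.0111 (B25) for isocitrate dehydrogenases and dioxygenases. Scaling also shifts the median of all tested genes. Relative to it, SR splicing factors stood at -0.0816, at -0.0761 with RLE factors, -0.0629 with upper quartile factors and 0.0145 with GC offsets. Megakaryocyte markers stood at 0.129, at 0.106 with upper quartile factors and 0.0549 with GC offsets.

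Of 21 list medians, marker lists apart, those that moved by more than 1 SD between replicates of the list's mean log2 CPM were 12 with upper quartile factors, 13 with GC offsets and 1 with RLE factors, and 1 more changed sign under each.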
